A study of Mus musculus with 9 samples.

Results

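The V0 sector of the vacuolar H+-ATPase (V-ATPase) and its accessory proteins were followed at the mRNA level in 9 libraries of cultured mouse bone marrow (BM) macrophages. The 10 genes were chosen by symbol in the table of 13526 genes, and each symbol matched exactly 1 row: Tcirg1, Atp6v0a1 and Atp6v0a2 for the a subunit, Atp6v0d1 and Atp6v0d2 for the d subunit, Atp6v0c and Atp6v0b for the proteolipid ring, Atp6v0e for the e subunit, and Atp6ap1 and Atp6ap2 for the accessory proteins. All 10 were among the 12932 genes kept by a filter on low values. The cells came from the marrow of C57BL/6 mice, 8 weeks old by the sample labels, and were grown with M-CSF, a survival factor for macrophages, at 10 ng/mL for 3 days. There were 3 libraries each of control macrophages without RANKL, of macrophages given RANKL for 48 hours, and of macrophages given RANKL with recombinant mouse cystatin M/E (rmCst6), a secreted inhibitor of cysteine proteases, for 48 hours. RANKL is the cytokine that turns such macrophages into osteoclasts. By the study's RNA-Seq methods, M-CSF was present along with RANKL during the 48 hours, and the medium of the controls is not described there. Doses of RANKL and rmCst6 are stated for other assays of the study but not for these RNA-Seq cultures, nor is it stated whether the controls stayed in culture for the same 48 hours. Whether the replicates came from different cultures or mice is not known either, so each p-value speaks only of the variation among these libraries, which could be technical.

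The V-ATPase is a rotary proton pump. Its cytosolic V1 sector splits ATP, and its membrane V0 sector carries protons across the bilayer. In osteoclasts the pump acidifies lysosomes and, once lysosomes fuse with the plasma membrane at the ruffled border, the resorption space under the cell, where acid dissolves bone mineral. The a subunit holds the half-channels for protons and exists as several isoforms that send the pump to different membranes. The d subunit couples the turning ring of V0 to the stalk of V1, and it has one isoform found in most cells and another found in few cell types, osteoclasts among them.

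The values are log2 normalized expression as the authors deposited it, with 0 as the lowest value. The linear sums per library were 2.77e+07 to 3.14e+07 after the authors' normalization, and read depth is unknown, since whole reads could not be recovered from the low values (37.6% to 54.5% of linear values under 12 were whole multiples of a step, to a tolerance of 0.02). Across genes, correlations were 0.989 to 0.991 between libraries within a group and 0.859 to 0.903 between groups, and no library stood apart from its group. The label of cultured macrophages was checked against markers. All 10 macrophage markers were expressed in all groups, with a summed linear value of 442813 to 473585 in control, 185974 to 188118 with RANKL and 386049 to 400290 with rmCst6 added. Of these 10, 9 fell with RANKL, and 6 rose and 2 fell with rmCst6 over RANKL. The 8 osteoclast markers summed to 1087 to 1164 in control, 467524 to 611628 with RANKL and 8700 to 11751 with rmCst6 added, with Calcr listed at 0 in all 3 control libraries, and all 8 rose with RANKL and fell with rmCst6. The sum of 12 neutrophil markers was 17668 to 24385, 6044 to 9995 and 48363 to 56259 in the same order. Of these 12, 11 were lower with RANKL than in control and 11 were higher with rmCst6 than with RANKL alone. The 5 megakaryocyte markers summed to 8153 to 8953, 680 to 973 and 6379 to 8726 (Gp1bb was listed at 0 in control), and the 7 stromal markers in the table to 5863 to 9846, 2961 to 3608 and 3866 to 6650. The 3 endothelial markers in the table summed to 128 to 202, 332 to 363 and 3281 to 3795. Kdr made up most of this sum with RANKL and with rmCst6 added, at mean log2 values of 8.36 and 11.69. Pecam1 averaged 6.68, 4.17 and 6.12 in control, RANKL and RANKL plus rmCst6, and Cdh5 3.85, 2.84 and 6.32. Most of the megakaryocyte sum was Pf4, at 13.03, 9.48 and 12.81 in the same order. Of the 4 megakaryocyte, 7 stromal and 3 endothelial markers tested, 4, 6 and 3 rose with rmCst6. The 2 of 5 B cell markers in the table summed to 3715 to 4306 in control, 115 to 134 with RANKL and 184 to 221 with rmCst6 added, and both fell with RANKL and rose with rmCst6 over RANKL. The T and NK cell (2 of 4 in the table), erythroid (1 of 4) and dendritic cell (6 of 6) markers summed to at most 317, 8.44 and 236 in any library. The part of these cells in the results below was not tested. In bulk RNA, fewer cells of a type and less RNA per cell cannot be told apart. The markers counted as rising or falling passed limma at an adjusted p under 0.05, two-sided. Over all genes tested, 36.6% were higher and 35.9% lower with RANKL. With rmCst6 over RANKL, 34.8% were higher and 38.0% lower, so counts from lists as short as 2 genes say little.

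RANKL raised most of the V0 genes, and rmCst6 lowered most of them again. The paralogs of the a subunit differed in direction, and those of the d subunit only in the size of their changes. With RANKL, 9 of the 10 genes rose over control and Atp6v0a1 fell. Among all genes tested, 72.5% passed the test, 36.6% as higher and 35.9% as lower (limma, adjusted p under 0.05, two-sided). With RANKL plus rmCst6 against RANKL alone, 9 of 10 fell and Atp6v0a2 rose, where 72.7% of all genes passed the test, 38.0% as lower and 34.8% as higher. The median log2 fold change of the members was 1.13 with RANKL over control, where that of all genes was -0.014, and -0.75 with rmCst6 over RANKL, where that of all genes was -0.017. Without Atp6v0d2 these medians were 0.97 and -0.66. The 3 libraries of one group did not overlap the 3 of the other in any of the 10 genes in either comparison. Over all genes this held for 75.4% with RANKL (37.8% higher, 37.6% lower) and for 75.9% with rmCst6 (36.4% higher, 39.4% lower). Both comparisons share the RANKL libraries, so they are not independent of each other. Median centring of the libraries moves the median fold change of all genes with RANKL from -0.014 to -0.12, and no member changed direction in these 2 comparisons under it.

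**Figure D1:**
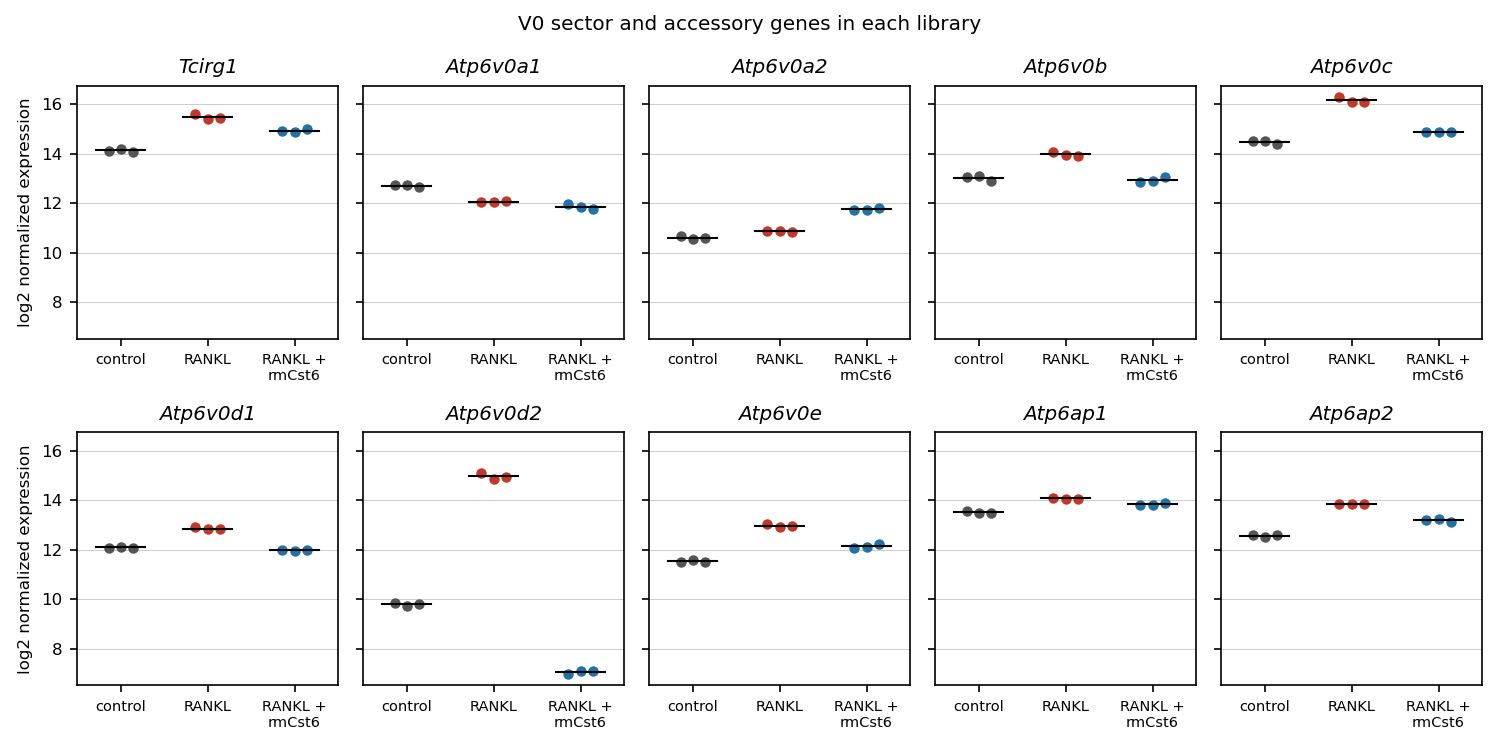
Log2 normalized expression (y axis) of the 10 genes in each of the 9 libraries, by group (x axis), with points for libraries and a black line for the group mean of 3. Most genes peak with RANKL, whereas Atp6v0a1 is highest in control, Atp6v0a2 is highest with RANKL plus rmCst6, and Atp6v0d2 spans the range from 6.996 to 15.11.

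Atp6v0d2, the restricted isoform of the d subunit, which mice need for normal fusion of preosteoclasts, had by far the widest range. It lies on chromosome 4 from 19876841 to 19922605 of GRCm38, on the minus strand. Its log2 expression was 9.85, 9.72 and 9.81 in the control libraries, 15.11, 14.87 and 14.92 with RANKL, and 6.996, 7.10 and 7.11 with rmCst6 added. The groups were far apart and did not overlap, and with rmCst6 the level was below that of the controls. The log2 fold change was 5.17 with RANKL over control (95% confidence interval 5.02 to 5.32, adjusted p = 7.03e-14 from limma), -7.90 with rmCst6 over RANKL (-8.05 to -7.75, adjusted p = 9.04e-16 from limma) and -2.72 with RANKL plus rmCst6 over control (-2.87 to -2.57, adjusted p = 3.12e-12 from limma). Among the 12932 genes tested it ranked 120 by the rise with RANKL and 14 by the fall with rmCst6. Since the lowest value is 0, the scale is taken as log2 of a value plus 1, which understates the changes of low genes.

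Atp6v0d1, the isoform of the d subunit found in most cells, changed far less. The gene lies on chromosome 8 from 105524465 to 105566047, on the minus strand. It read 12.07, 12.12 and 12.07 in control, 12.90, 12.82 and 12.83 with RANKL, and 11.97, 11.96 and 11.998 with rmCst6 added. It rose with RANKL by a log2 value of 0.76 (0.67 to 0.85) and then fell by 0.87, to slightly below control. The difference from control was -0.11 (-0.20 to -0.021, adjusted p = 0.0290 from limma), and it no longer passed the test without the second control library (log2 difference -0.090, adjusted p = 0.0987) or without the first or second library of RANKL plus rmCst6 (adjusted p = 0.0675 and 0.0851). Median centring moved it to -0.18.

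The major d subunit transcript therefore differed between the groups. To set levels of both genes side by side, linear values were divided by the merged exon length of each gene, 1793 bases for Atp6v0d1 and 2716 for Atp6v0d2. Atp6v0d2 made up 12.4%, 11.1% and 12.1% of the sum of both in the control libraries, 75.4%, 73.2% and 73.7% with RANKL, and 2.04%, 2.21% and 2.16% with rmCst6 added. Atp6v0d2 was the minor form in control, the major form with RANKL and a trace with rmCst6. The log2 ratio of Atp6v0d2 to Atp6v0d1 averaged -2.90 ± 0.10 (SD, n = 3) over the control libraries, 1.52 ± 0.088 with RANKL and -5.52 ± 0.060 with rmCst6 added. In each of the 3 comparisons the libraries did not overlap (exact permutation test, two-sided, p = 0.1, the smallest that 3 against 3 allows, and 0.1 after adjustment over 12 tests). The summed d subunit level per kb of exon was 2752 ± 41.9 (SD, n = 3) without RANKL, 15916 ± 1213 with RANKL and 2297 ± 29.6 with rmCst6 added.

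**Figure D2:**
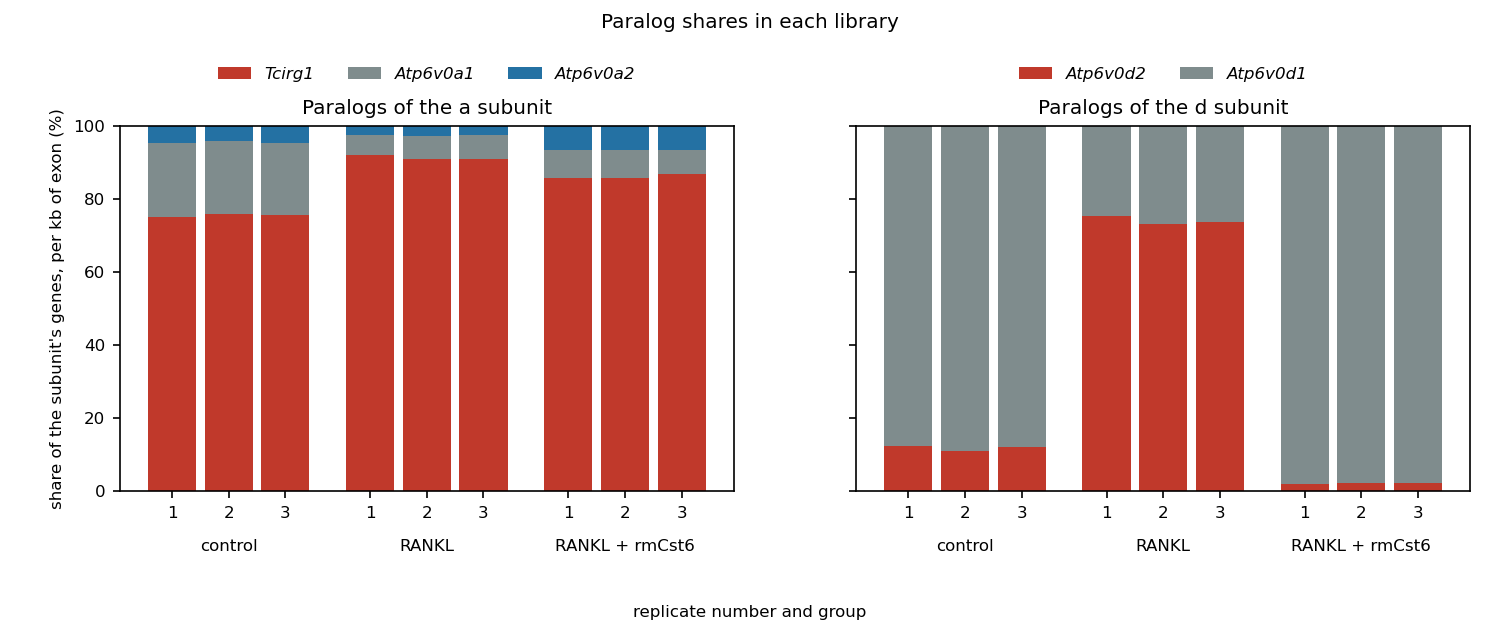
Share in percent (y axis, from 0 to 100) of each paralog in the summed expression per kb of exon of the a subunit (left) and the d subunit (right), in 1 stacked bar per library (x axis, 3 replicates in each of 3 groups). The Atp6v0d2 share is 11.1% to 12.4% in control, 73.2% to 75.4% with RANKL and 2.04% to 2.21% with rmCst6 added, and the Atp6v0a2 share is highest with RANKL plus rmCst6.

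Tcirg1 encodes a3, the a isoform of the lysosome and the ruffled border, whose loss causes osteopetrosis in mice and people. The gene lies on chromosome 19 from 3896050 to 3907133, on the minus strand. Its log2 expression was 14.12, 14.17 and 14.08 in control, 15.60, 15.38 and 15.42 with RANKL, and 14.89, 14.88 and 14.99 with rmCst6 added. The groups did not overlap, and the libraries with rmCst6 lay between the other groups. The log2 fold change was 1.34 with RANKL (1.21 to 1.47, adjusted p = 6.99e-10 from limma), -0.55 with rmCst6 over RANKL (-0.68 to -0.42) and 0.79 with RANKL plus rmCst6 over control (0.67 to 0.92, adjusted p = 9.09e-08 from limma). Quantile normalization gave -0.87 and 0.39 for the last 2 values.

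Atp6v0a1 and Atp6v0a2 moved in other directions. Atp6v0a1, on chromosome 11 from 101009452 to 101063719, encodes the isoform best known from synaptic vesicles. It read 12.73, 12.73 and 12.66 in control, 12.04, 12.04 and 12.10 with RANKL, and 11.95, 11.86 and 11.77 with rmCst6 added. It thus fell with RANKL, by 0.65 on the log2 scale (adjusted p = 1.23e-07 from limma), and was lower again with rmCst6, by 0.20 (-0.30 to -0.088, adjusted p = 0.00339 from limma). It was the only member whose level with RANKL was below control. Atp6v0a2, on chromosome 5 from 124628576 to 124724455, encodes the isoform of the Golgi and early endosomes. Its values were 10.68, 10.54 and 10.61 in control, 10.88, 10.87 and 10.82 with RANKL, and 11.71, 11.73 and 11.81 with rmCst6 added. The gene rose slightly with RANKL, by 0.25 (0.14 to 0.36, adjusted p = 8.03e-04 from limma; 0.14 after median centring, adjusted p = 0.0278), and rose further with rmCst6, by 0.90 (0.79 to 1.006, adjusted p = 5.62e-09 from limma). Against control the difference with RANKL plus rmCst6 was 1.14 (1.03 to 1.25), the largest rise among the members in that comparison.

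In the a subunit the exchange was therefore among 3 genes, with Tcirg1 the major form in every library. Per kb of merged exon, Tcirg1 made up 75.6% ± 0.42 (SD, n = 3) of the sum of the 3 genes in control, 91.4% ± 0.64 with RANKL and 86.2% ± 0.62 with rmCst6 added. Atp6v0a1 went from 19.9% ± 0.19 to 6.05% ± 0.49 and 7.28% ± 0.65, so its share stayed low with rmCst6, and the libraries with and without rmCst6 did not overlap. Atp6v0a2 made up 4.53% ± 0.27, 2.56% ± 0.16 and 6.56% ± 0.10. The log2 ratio of Atp6v0a2 to Atp6v0a1 was -2.14 ± 0.080 (SD, n = 3) in the controls, -1.24 ± 0.061 with RANKL and -0.15 ± 0.14 with rmCst6 added. The size of this ratio depends on the length used: per kb of the longest coding transcript it was -2.51, -1.62 and -0.53 in the same order, with the same differences between groups. The log2 ratio of Tcirg1 to Atp6v0a1 was 1.93 ± 0.021, 3.92 ± 0.13 and 3.57 ± 0.14 in the same order, and that of Tcirg1 to Atp6v0a2 was 4.06 ± 0.096, 5.16 ± 0.10 and 3.72 ± 0.023. Every one of these 3 ratios had groups that did not overlap in all 3 comparisons, each again at the smallest exact permutation p of 0.1. The summed a subunit level per kb was 5134 ± 134 in control, 10786 ± 785 with RANKL and 7816 ± 279 with rmCst6 added. With rmCst6 added, the summed a level was thus above control and the summed d level below it, both in libraries that did not overlap.

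Atp6v0c and Atp6v0b encode the proteolipids c and c'' that form the turning ring. Atp6v0c, on chromosome 17 from 24163866 to 24169702, read 14.50, 14.52 and 14.39 in control, 16.26, 16.08 and 16.09 with RANKL, and 14.88, 14.86 and 14.88 with rmCst6 added. It had the second largest rise of the members with RANKL, 1.68 (1.55 to 1.80, adjusted p = 7.59e-11 from limma), and fell with rmCst6 by 1.27. It was still 0.40 above control by the authors' normalization (adjusted p = 3.95e-05 from limma), but quantile normalization turned this value to -0.032 (adjusted p = 0.619). GENCODE M21 annotates 2 processed pseudogenes of Atp6v0c, which may share reads with it, so its level is less certain. Atp6v0b, on chromosome 4 from 117884326 to 117887333, read 13.04, 13.08 and 12.90 in control, 14.05, 13.96 and 13.92 with RANKL, and 12.84, 12.88 and 13.04 with rmCst6 added. It rose with RANKL by 0.97 (0.83 to 1.11) and fell with rmCst6 by 1.06 (adjusted p = 1.06e-08 from limma). The libraries of RANKL plus rmCst6 overlapped those of control, with a log2 difference of -0.086 (-0.23 to 0.053, adjusted p = 0.242 from limma). That difference passed the test after quantile normalization (-0.19, adjusted p = 0.00926) and median centring (-0.16, adjusted p = 0.0309). An antisense gene, Gm12841, overlaps Atp6v0b, and another, 4930404A12Rik, overlaps Atp6v0a2. The libraries were made with a stranded kit, but the strand setting used in counting is not stated.

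Atp6v0e, the small e subunit (chromosome 17 from 26663231 to 26699647), and the accessory genes showed the same order of groups as Tcirg1. Atp6v0e ranged from 11.49 to 11.58 in control, from 12.93 to 13.02 with RANKL and from 12.08 to 12.23 with rmCst6 added. Its log2 fold change was 1.44 with RANKL and -0.84 with rmCst6 over RANKL (adjusted p = 1.12e-08 from limma), and it stayed 0.61 above control. Atp6ap2, the (pro)renin receptor and an assembly partner of V0, lies on chromosome X from 12587801 to 12617049. It ranged from 12.51 to 12.60, from 13.84 to 13.86 and from 13.13 to 13.23, a rise of 1.28 with RANKL and a fall of 0.66 with rmCst6. Atp6ap1, which encodes the accessory protein Ac45, lies on chromosome X from 74297097 to 74304721. It moved the least of the 3, from 13.49 to 13.57 in control, 14.05 to 14.09 with RANKL and 13.81 to 13.88 with rmCst6 added. The fall in Atp6ap1 with rmCst6 was 0.23 (-0.32 to -0.14, adjusted p = 2.95e-04 from limma), or 0.41 after quantile normalization, and the level stayed 0.32 above control (0.14 after quantile normalization, adjusted p = 0.00462).

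All members were also looked up in the RefSeq promoter windows of GRCm38.p6, which run from 250 bases before to 50 after each annotated start. Windows were found for 8 of the 10 genes, 12 windows in all, and not for Atp6v0a2 and Atp6v0d2. The motifs were searched on both strands: CACGTG, the palindromic E-box bound by the lysosomal factors of the MiT/TFE family (Mitf, Tfeb, Tfe3 and Tfec), its variant CATGTG, the AP-1 site TGACTCA and the NFAT core GGAAA. The palindrome CACGTG was in the windows of Atp6v0b, Atp6v0d1 and Atp6v0e, 3 of 8 genes, against 8.09% of 27025 genes with windows. CATGTG was in a window of Atp6v0c (15.9% of genes), GGAAA in windows of 6 genes (64.4% of genes), and TGACTCA in none (5.95% of genes). The stretches from 60 bases before to 20 after the start are shown for the 4 genes with an E-box form, 5′ to 3′ on the gene's strand, with the motif in capitals. In Atp6v0b it occurs at -36 to -31 and at -18 to -13 from the start, in Atp6v0d1 from -3 to 3, in Atp6v0c from -16 to -11 and in Atp6v0e from 4 to 9. The first base of the transcript counts as 1 and the base before it as -1. These matches describe the letters of the windows and are no evidence of binding.
Atp6v0b (chr4:117887310-117887389, minus strand): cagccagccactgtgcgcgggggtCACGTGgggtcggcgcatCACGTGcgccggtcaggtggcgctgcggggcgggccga
Atp6v0d1 (chr8:105566045-105566124, minus strand): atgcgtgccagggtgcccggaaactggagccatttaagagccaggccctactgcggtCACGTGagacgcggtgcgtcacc
Atp6v0c (chr17:24169431-24169510, minus strand): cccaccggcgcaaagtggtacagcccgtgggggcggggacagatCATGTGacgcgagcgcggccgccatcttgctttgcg
Atp6v0e (chr17:26676336-26676415, plus strand): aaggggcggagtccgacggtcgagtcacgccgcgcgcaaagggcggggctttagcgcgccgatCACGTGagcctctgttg

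The order of levels among the members, per kb of merged exon, changed mainly through Atp6v0d2. In control, Atp6v0c was highest at 6707 ± 315 normalized units per kb (SD, n = 3), followed by Atp6v0b at 4017 ± 268, Tcirg1 at 3881 ± 112 and Atp6ap1 at 3875 ± 130, whose ranges overlapped. Atp6v0d2, at 326 ± 15.4, was the ninth, above Atp6v0a2 at 232 ± 11.03. With RANKL, Atp6v0d2 was the second at 11804 ± 1090, between Atp6v0c at 21468 ± 1558 and Tcirg1 at 9861 ± 789. Atp6ap1 and Atp6ap2 overlapped with RANKL, at 5666 ± 92.5 and 5617 ± 38.7. With RANKL plus rmCst6, Atp6v0d2 was the last at 49.1 ± 2.13, and Atp6v0c led again at 8861 ± 82.7. Atp6v0a1 at 568 ± 34.4 and Atp6v0a2 at 512 ± 19.2 then overlapped, as did Atp6v0b at 3785 ± 278 and Atp6ap2 at 3566 ± 122. Part of this order depends on the length used. Per kb of the longest coding transcript, Atp6v0b, whose length goes from 2051 to 1000 bases, was the second in control at 8240 ± 550, with Tcirg1 at 5874 ± 169 and Atp6ap1 at 5356 ± 179, and these ranges were apart. With RANKL it was then the second at 16136 ± 790, in a range that overlapped Tcirg1 at 14926 ± 1195, and Atp6v0d2 was the fourth at 12627 ± 1166. With RANKL plus rmCst6, Atp6v0b was then the third at 7763 ± 570, apart from Atp6ap2 at 4017 ± 137, and Atp6v0a1 at 929 ± 56.2 was apart from Atp6v0a2 at 645 ± 24.2.

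**Figure D3:**
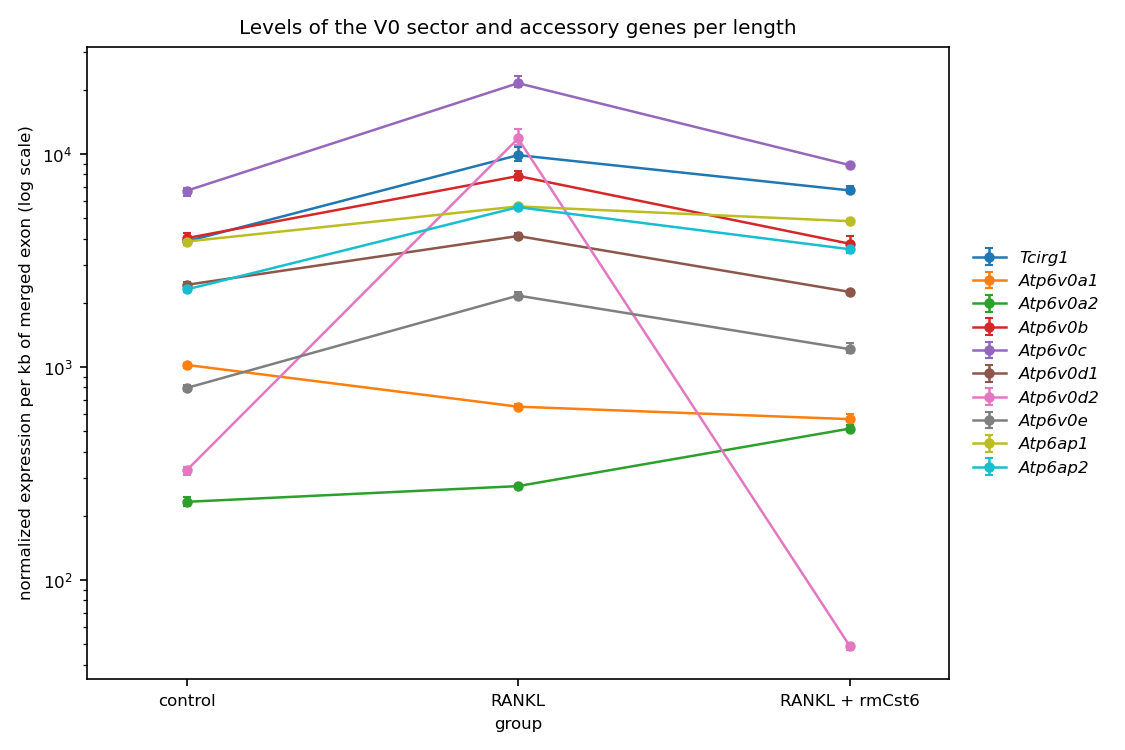
Normalized expression per kb of merged exon (y axis, log scale) of the 10 genes in the 3 groups (x axis), with points for means of 3 libraries and bars from the lowest to the highest library. Atp6v0d2 crosses most of the other genes, from 326 in control to 11804 with RANKL and 49.1 with rmCst6 added, while Atp6v0a1 and Atp6v0a2 lie closest to each other with rmCst6, at 568 and 512.

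Against control, the V0 genes with RANKL plus rmCst6 were split. Of the 10, 6 were higher (Tcirg1, Atp6v0a2, Atp6v0c, Atp6v0e, Atp6ap1 and Atp6ap2), 3 were lower (Atp6v0a1, Atp6v0d1 and Atp6v0d2) and Atp6v0b did not pass the test. Over all genes tested, 71.7% passed in this comparison, 36.7% as higher and 35.1% as lower. The libraries did not overlap in 9 of the 10 members and in 75.4% of all genes (38.7% higher, 36.8% lower). The median log2 difference of the members was 0.36, against 0.012 for all genes. The differences from control were at least 2-fold only for Atp6v0a2, which was higher, and Atp6v0d2, which was lower. Over all genes, 12.5% were called and at least 2-fold higher in this comparison, and 13.2% were called and at least 2-fold lower. With RANKL over control, 5 members were called and at least 2-fold higher (13.4% of all genes), and with rmCst6 over RANKL, Atp6v0b, Atp6v0c and Atp6v0d2 were called and at least 2-fold lower (15.0% of all genes).

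**Figure D4:**
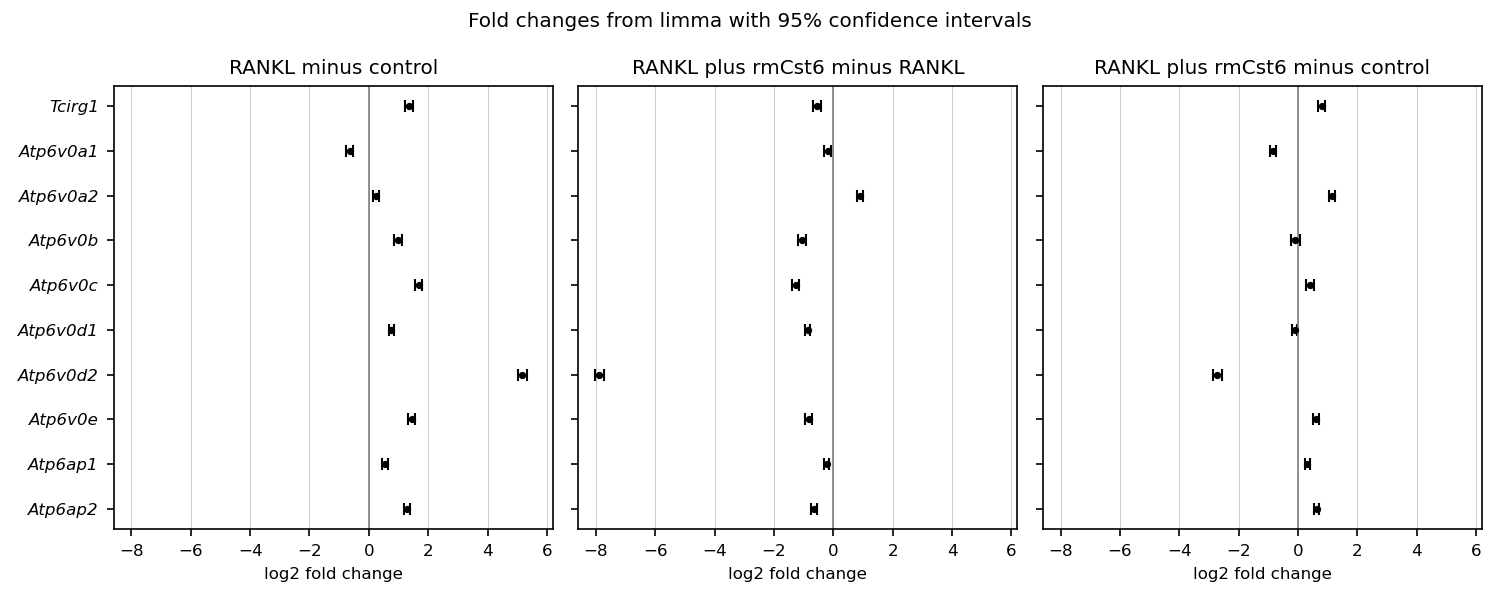
Log2 fold change from limma (x axis) of the 10 genes (y axis) in the 3 comparisons, with bars for 95% confidence intervals that are often narrower than the marker. Atp6v0d2 lies far from the other members in each comparison, at 5.17, -7.90 and -2.72. Atp6v0a1 is the one member below 0 with RANKL over control, and Atp6v0a2 the one member above 0 with rmCst6 over RANKL.

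The V1 sector, which holds the catalytic subunits, had 9 of 13 listed genes in the table. Of these, 8 rose with RANKL and 8 fell with rmCst6, with median log2 fold changes of 1.74 and -1.18. For this and the next lists, the shares over all genes are 36.6% higher and 35.9% lower with RANKL, and 34.8% higher and 38.0% lower with rmCst6 over RANKL. Examples with rmCst6 over RANKL are Atp6v1c1 (-1.53), Atp6v1b2 (-1.94), Atp6v1d (-1.80) and Atp6v1a (-1.18). The exception in both was Atp6v1g2, a G isoform known from neurons, which was at a low mean log2 value of 6.41 in control, fell by 1.03 with RANKL and rose by 0.92 with rmCst6. Of 12 genes tested for assembly and regulation of the pump, 8 rose and 3 fell with RANKL. The 3 that fell were Ncoa7 (-0.79), Rogdi (-0.26) and Ccdc115 (-0.14). With rmCst6 over RANKL, 2 rose and 9 fell, the latter including Rogdi (-1.72), Oxr1 (-1.22) and Wdr7 (-1.01). Rogdi thus fell in both comparisons. Wdr7 acts with the Dmxl proteins in joining V1 to V0. The 2 that rose with rmCst6 over RANKL were Ncoa7 (0.99) and Ccdc115 (0.13). Of 9 partners in acid secretion, 8 rose with RANKL and 8 fell with rmCst6, including Slc9b2 (-7.56), Car2 (-7.87), Snx10 (-1.96) and Slc4a2 (-2.76). Exceptions were Rab3d, which fell with RANKL (-0.42), and Plekhm1, which did not pass the test with rmCst6 over RANKL (0.089). Of 7 transcription factors listed for these genes, 4 rose and 2 fell with RANKL. Those that fell were Fos (-2.05) and Tfe3 (-0.82), and Tfeb (-0.089) did not pass the test with RANKL. With rmCst6, 4 fell, including Nfatc1 (-3.11), Tfec (-2.46) and Tfeb (-0.91), Tfe3 rose (0.56), and Mitf (0.014) and Fos (0.15) did not pass the test. With 7 genes, 4 that fell are not far from the 38.0% of all genes.

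Nearest patterns were sought among genes kept by the filter, leaving out gene models named only by a Gm number, Rik clone or identifier. Of these genes, Apbb1 (Euclidean distance 1.11 on the log2 scale), Rab38 (1.27) and Tlcd3b (1.94) ran closest to Atp6v0d2. Distances used the 9 library values after subtraction of each gene's mean. Apbb1 averaged 5.12 in control, 10.58 with RANKL and 3.05 with rmCst6 added. In the same order, Rab38 averaged 5.17, 10.03 and 2.90, and Tlcd3b 3.12, 7.52 and 0.33. With rmCst6 these genes lay nearer the lowest value of 0 than Atp6v0d2 at 7.07, and the scale understates changes of low genes. For Atp6v0a2 the closest genes were Plcl2 (distance 0.14), Coa5 (0.14) and Atf4 (0.17). Plcl2 averaged 10.70 in control, 10.99 with RANKL and 11.82 with rmCst6 added. The 9 libraries fall into 3 groups, so the distances describe likeness only.

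Within groups, the members' libraries lay close together. RANKL replicate 1 had the highest value of its group in 9 of 10 members, with a median deviation from the group mean of 0.052 on the log2 scale over all 10, and RANKL plus rmCst6 replicate 3 in 8 of 10, with a median deviation of 0.041. Leaving out any single library left all 10 calls in place with RANKL over control and with rmCst6 over RANKL.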

How the data were processed

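Bulk RNA-Seq of 9 libraries in 3 groups of 3 was used, with groups and replicate numbers from the sample titles and columns matched by name. The table that the authors deposited holds log2 normalized expression of 13526 genes. The submitters' processing notes name Salmon 1.2.1, DESeq2 and GRCm38.p6 without roles, and the strand setting, the gene filter and the read counts are not given in the sources used here. Intervals on counts were therefore not computed, and precision rests on the spread of 3 replicates.

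Genes with a linear value of at least 10 in at least 3 libraries were kept (12932 kept, 594 left out). limma 3.58.1 in R 4.3.3 (statmod 1.5.0), with the mean-variance trend on, was fitted to all 9 libraries, with Benjamini-Hochberg adjustment over all genes kept. The threshold for a call was 0.05 on the adjusted two-sided p. Shares and ratios used linear values (2 to the deposited value, minus 1) divided by merged exon length from GENCODE M21 (13516 of 13526 identifiers matched). Ratios were compared with exact permutation tests in scipy 1.17.1. The 10 members, 5 pathway lists (V1 sector, other V0 paralogs, assembly and regulation, partners of acid secretion, regulators) and 11 marker lists were chosen with earlier results of these data known. Named genes were all members, up to 4 genes per pathway list with the smallest adjusted p with rmCst6 over RANKL and those against the majority, and the 3 nearest patterns of Atp6v0d2 and Atp6v0a2. Other V0 paralogs (Atp6v0a4, Atp6v0e2 and Atp6ap1l) and mast cell markers were looked up by symbol but had no row in the deposited table, so they could not be analysed. Alternatives were other filters, a further 8 added before the log, other scaling, limma settings, only the groups compared, a replicate block, gene lengths and leaving out each library.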

Additional observations from a re-analysis of the deposited data

How the results depend on the processing

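The direction and the call of every member with RANKL over control and with rmCst6 over RANKL were the same under all alternatives run. Against control, Atp6v0c reversed to -0.032 with RANKL plus rmCst6 after quantile normalization, and the members called ranged from 5 to 6 higher and from 2 to 4 lower. Atp6v0d1 there was also not called with the trend off (adjusted p = 0.0534 from limma). The causes were not tested. Without division by length, the Tcirg1 share was 68.4%, 88.1% and 81.2% in control, RANKL and RANKL plus rmCst6, and the Atp6v0d2 share 16.9%, 81.3% and 3.20%. Quantile normalization gave a Tcirg1 share of 77.0% in control and 84.1% with rmCst6 and an Atp6v0d2 share of 2.22% with rmCst6, and the longest coding transcript gave 75.0% for Tcirg1 in control. Quantile normalization moved the log2 ratio of Tcirg1 to Atp6v0a1 with rmCst6 over RANKL from -0.35 to -0.63, and that of Tcirg1 to Atp6v0a2 with RANKL plus rmCst6 over control from -0.35 to -0.70. The replicate number as a block changed no call of a member (9 higher and 1 lower with RANKL, 1 higher and 9 lower with rmCst6). Samples of the same number had correlations of -0.078 to 0.071 in their deviations from group means, and those of different numbers -0.082 to 0.083. The replicate numbers thus showed no shared effect, but this cannot tell whether they mark shared cultures or mice. Read depth is unknown, which leaves the precision of low values such as Atp6v0d2 with rmCst6 to the replicates alone.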
